A study of Homo sapiens with 12 samples.

Results

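The genes described here are 10 targets and regulators of transforming growth factor beta (TGF-beta) and bone morphogenetic protein (BMP) signalling, PMEPA1, ID1, ID2, ID3, LTBP1, LTBP2, SMAD6, SMAD7, SKIL and TGFBI. They were taken by symbol from the Ensembl gene identifiers of the quantification files, and 10 of 60708 identifiers matched. TGF-beta and BMP ligands bind pairs of serine/threonine kinase receptors, which phosphorylate SMAD transcription factors, and these enter the nucleus with SMAD4. The inhibitory SMADs SMAD6 and SMAD7, SKIL (SnoN) and PMEPA1 are induced by the pathway and restrain it, whereas ID1, ID2 and ID3, which bind basic helix-loop-helix factors and keep them off DNA, are classic BMP targets. LTBP1 and LTBP2 are latent TGF-beta binding proteins of the extracellular matrix, and TGFBI is a secreted matrix protein first found as a TGF-beta-induced gene. In retinal pigment epithelium TGF-beta is known for driving matrix deposition and a shift towards a mesenchymal state.

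The cells were hTERT RPE-1, an established line from human retinal pigment epithelium that was immortalised with telomerase, and mRNA was sequenced in 12 libraries. There were 4 clonal stable lines, 2 overexpressing lamin B1 fused to mCherry (LmnB1_6 and LmnB1_16) and 2 overexpressing the fluorescent protein mCherry alone (mCherry_4 and mCherry_3), with 3 biological replicates per line. All cultures had been given doxycycline (0.05 ug/mL, 24 hours) and grew in medium with fetal bovine serum and hygromycin B. The labels name no TGF-beta, BMP or inhibitor treatment in any group. Each line is 1 clone, so a construct is represented by 2 clones and the 3 libraries of a clone do not sample a construct independently. The p-values below measure the spread between libraries.

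Total estimated counts were 20.6 to 29.48 M in LmnB1 libraries and 23.04 to 26.23 M in mCherry libraries, and 15388 genes were tested, all 10 members among them. Where no unit is named, a level is in CPM, the count relative to the TMM-scaled library size; TPM is also scaled by transcript length. LMNB1 itself stood at 3976 ± 164 CPM in LmnB1_6, 3374 ± 273 in LmnB1_16, 161 ± 7.29 in mCherry_4 and 85.0 ± 7.12 in mCherry_3 (SD, n = 3), higher in both clones labelled as overexpressing lamin B1. Of the defining pigment epithelium markers, RPE65 and TYR had 0 counts in every library, while the epithelial keratins KRT8 and KRT18 were present. The other epithelial markers read, KRT19 and CDH1 (E-cadherin), were at most 0.196 and 0.0717 CPM in any library. The pigment epithelium factors MITF and OTX2 were at 0.06 and 0 CPM in LmnB1_6, against 31.3 and 15.5 in LmnB1_16, 49.0 and 11.1 in mCherry_4 and 58.6 and 12.6 in mCherry_3.

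The members parted the clones rather than the constructs. In LmnB1_6, 6 of the 10 (PMEPA1, ID2, LTBP2, TGFBI, SMAD6 and SMAD7) were higher in all 3 libraries than in any of the other 9, an arrangement found for 10.9% of all tested genes. None lay below the other 9 libraries in LmnB1_6, against 12.3% of tested genes. The ranges of ID1 overlapped between all 4 clones, and those of ID3 in every pair of clones but mCherry_4 and mCherry_3. Comparing LmnB1_6 with both mCherry clones, edgeR called 7 of 10 members higher at an adjusted p under 0.05 and 0 lower, where 24.4% of tested genes were called higher and 24.6% lower. Of these 7, LTBP1 was not called against mCherry_4 alone (log2 fold change 0.09, edgeR adjusted p = 0.262). The median log2 fold change was 1.10 over the members and 0.00 over all tested genes, and 5 members rose at least 2-fold, as did 5.08% of tested genes. In these bulk libraries, a change in the share of cells carrying a transcript and a change in RNA per cell cannot be told apart.

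**Figure D1:**
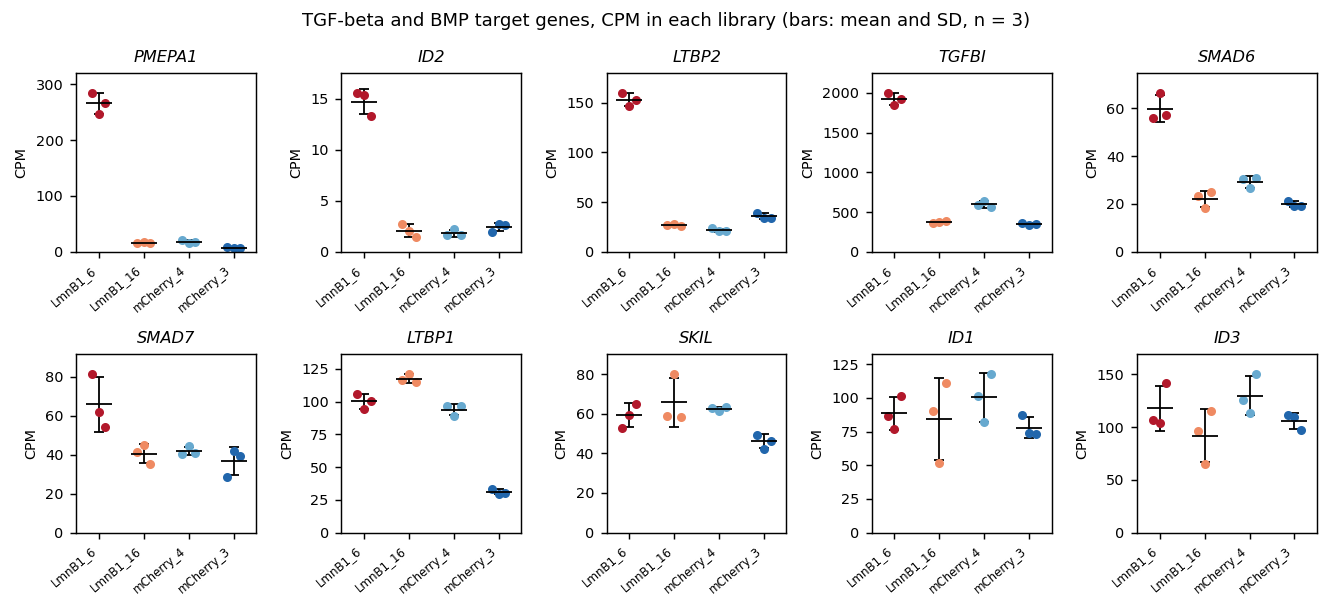
CPM of the 10 members in each library (vertical axes, linear, each starting at 0), with LmnB1_6, LmnB1_16, mCherry_4 and mCherry_3 from left to right; points are libraries, bars the mean and SD of 3. The LmnB1_6 points lie above all others for PMEPA1, ID2, LTBP2, TGFBI, SMAD6 and SMAD7, and each LmnB1 clone overlaps each mCherry clone for ID1 and ID3.

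Among the feedback inhibitors, PMEPA1 differed most. PMEPA1 (ENSG00000124225.16, chr20:57648392-57711536, minus strand, GRCh38) encodes a membrane protein that binds receptor-regulated SMADs and limits their activation. It had 285, 248 and 266 CPM in LmnB1_6, 15.3, 17.0 and 16.01 in LmnB1_16, 21.5, 15.7 and 17.4 in mCherry_4 and 7.95, 7.02 and 6.62 in mCherry_3. The LmnB1_6 libraries were thus far above the rest, and LmnB1_16 overlapped mCherry_4 while both lay above mCherry_3. PMEPA1 was 23.3-fold higher in LmnB1_6 than in the mCherry clones (log2 fold change 4.54, SE 0.08, edgeR adjusted p = 1.54e-16). Against LmnB1_16 the LmnB1_6 level was 16.5-fold higher (SE 0.10 around a log2 fold change of 4.05, edgeR adjusted p = 1.43e-14).

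SMAD6 (ENSG00000137834.15, chr15:66702228-66782848, plus strand) and SMAD7 (ENSG00000101665.10, chr18:48919853-48952052, minus strand) encode the inhibitory SMADs. SMAD6 acts mainly on BMP receptors and SMAD7 on both branches. SMAD6 had 56.1, 66.4 and 57.1 CPM in LmnB1_6, 23.1, 18.4 and 25.0 in LmnB1_16, 30.4, 26.5 and 30.9 in mCherry_4 and 21.2, 19.1 and 19.1 in mCherry_3. SMAD7 had 81.5, 61.7 and 54.3 CPM in LmnB1_6, 41.5, 44.8 and 35.2 in LmnB1_16, 40.4, 44.2 and 40.6 in mCherry_4 and 28.3, 41.9 and 39.4 in mCherry_3. Both were highest in LmnB1_6, without overlap, and the other clones overlapped for SMAD7. In LmnB1_6 against the mCherry clones SMAD6 was 2.48-fold higher (log2 fold change 1.31, SE 0.09, edgeR adjusted p = 2.21e-09) and SMAD7 1.68-fold higher (log2 fold change 0.75, SE 0.12, edgeR adjusted p = 8.51e-05).

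SKIL (ENSG00000136603.14, chr3:170357678-170396835, plus strand), which encodes a SMAD co-repressor, did not share this pattern. It had 53.0, 59.6 and 65.2 CPM in LmnB1_6, 58.9, 80.2 and 58.2 in LmnB1_16, 63.0, 61.6 and 63.5 in mCherry_4 and 49.4, 42.5 and 46.5 in mCherry_3. The lowest clone was mCherry_3, below all libraries of the other clones, which overlapped each other. In LmnB1_6 against the mCherry clones the log2 fold change of SKIL was 0.14 (95% interval -0.04 to 0.32, edgeR adjusted p = 0.219).

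Promoter windows of 4 members that were highest in LmnB1_6 are shown, each at an annotated start of its gene. The levels are per gene, and which start the cells used was not tested. The windows differ in the SMAD-type motifs they hold. Each window holds 250 bases before and 50 from the RefSeq start on (GRCh38.p14), written 5′ to 3′ on the gene's strand. They lie at chr20:57711423-57711722 (PMEPA1, minus strand), chr15:66701986-66702285 (SMAD6, plus), chr18:48950916-48951215 (SMAD7, minus) and chr2:8681806-8682105 (ID2, plus). Capitals mark matches to CAGAC (the SMAD box), GGCGCC (a GC-rich SMAD element) or GTCTAGAC (the palindromic SMAD element) on either strand.
PMEPA1: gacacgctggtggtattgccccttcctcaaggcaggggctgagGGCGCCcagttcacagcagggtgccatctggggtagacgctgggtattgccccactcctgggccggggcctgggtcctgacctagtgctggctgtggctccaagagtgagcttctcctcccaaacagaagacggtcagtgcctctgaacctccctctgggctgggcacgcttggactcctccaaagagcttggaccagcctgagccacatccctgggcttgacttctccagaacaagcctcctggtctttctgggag
SMAD6: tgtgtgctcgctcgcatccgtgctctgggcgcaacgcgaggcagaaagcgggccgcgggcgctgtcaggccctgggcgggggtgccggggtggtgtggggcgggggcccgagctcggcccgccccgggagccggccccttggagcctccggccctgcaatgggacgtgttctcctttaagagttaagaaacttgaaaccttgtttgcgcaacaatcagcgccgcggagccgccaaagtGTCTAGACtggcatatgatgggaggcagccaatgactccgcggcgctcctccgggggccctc
SMAD7: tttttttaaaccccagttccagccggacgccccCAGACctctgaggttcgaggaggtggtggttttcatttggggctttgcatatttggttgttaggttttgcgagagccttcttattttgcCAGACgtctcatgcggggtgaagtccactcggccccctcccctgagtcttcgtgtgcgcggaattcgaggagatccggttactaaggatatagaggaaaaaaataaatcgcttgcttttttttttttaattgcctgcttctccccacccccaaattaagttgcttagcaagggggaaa
ID2: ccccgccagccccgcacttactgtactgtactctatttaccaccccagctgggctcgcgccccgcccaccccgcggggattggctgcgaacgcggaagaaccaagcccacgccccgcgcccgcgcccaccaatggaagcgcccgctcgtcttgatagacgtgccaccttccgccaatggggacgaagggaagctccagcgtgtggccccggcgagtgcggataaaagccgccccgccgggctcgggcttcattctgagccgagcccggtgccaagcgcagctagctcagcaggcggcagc
The SMAD7 and ID2 windows start transcription 1087 and 3211 bases inside the gene bounds of GENCODE 29. The SMAD6 window held the palindrome, starting 12 bases before the start site, and it was the single member window with one. That motif occurred in 71 of 35116 RefSeq promoter windows of this length (0.202%). The SMAD7 window held CAGAC at 217 and 128 bases before its start and the PMEPA1 window GGCGCC at 207 bases before its start. Over all 10 members, 5 windows held CAGAC or its reverse complement, against 45.3% of all windows, and 4 held GGCGCC, against 19.2%. The ID2 window held none of the 3 motifs. The searched motifs did not overlap one another in any member window, and the matches describe letters in these windows only.

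The ID genes split. ID2 (ENSG00000115738.10, chr2:8678845-8684453, plus strand) had 15.5, 15.3 and 13.3 CPM in LmnB1_6, 2.68, 2.06 and 1.47 in LmnB1_16, 1.62, 2.21 and 1.61 in mCherry_4 and 1.94, 2.72 and 2.59 in mCherry_3. All LmnB1_6 libraries lay above the rest, and the other 3 clones overlapped. ID2 was 6.98-fold higher in LmnB1_6 than in the mCherry clones (log2 fold change 2.80, SE 0.16, edgeR adjusted p = 4.16e-10) and 7.18-fold higher than in LmnB1_16 (SE 0.20 around a log2 fold change of 2.84, edgeR adjusted p = 1.13e-08).

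ID1 (ENSG00000125968.9, chr20:31605283-31606515, plus strand) and ID3 (ENSG00000117318.9, chr1:23557918-23559794, minus strand) were abundant and showed no such step. ID1 had 86.8, 77.0 and 102 CPM in LmnB1_6, 90.1, 51.5 and 111 in LmnB1_16, 102, 81.9 and 118 in mCherry_4 and 87.1, 73.6 and 73.2 in mCherry_3. ID3 had 107, 104 and 142 CPM in LmnB1_6, 95.9, 64.6 and 115 in LmnB1_16, 126, 113 and 150.4 in mCherry_4 and 111, 109.6 and 97.5 in mCherry_3. For both genes the LmnB1_16 libraries spanned a wider range than the 4 clone means, and LmnB1_16 replicate 2 was the lowest of the 12 libraries. The log2 fold change of LmnB1_6 against the mCherry clones was 0.00 for ID1 (95% interval -0.33 to 0.34, edgeR adjusted p = 0.993) and 0.01 for ID3 (95% interval -0.27 to 0.28, edgeR adjusted p = 0.978). In LmnB1_16 against the mCherry clones ID3 was at a log2 fold change of -0.35 (edgeR adjusted p = 0.0704), which was -0.55 (edgeR adjusted p = 0.00975) without LmnB1_16 replicate 3 and -0.15 (edgeR adjusted p = 0.370) without LmnB1_16 replicate 2.

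The matrix genes formed 2 patterns. TGFBI (ENSG00000120708.17, chr5:136028895-136063818, plus strand) had 1998, 1848 and 1922 CPM in LmnB1_6, 356, 371 and 386 in LmnB1_16, 584, 642 and 559 in mCherry_4 and 365, 334 and 343 in mCherry_3. LTBP2 (ENSG00000119681.12, chr14:74498170-74612378, minus strand), which is bound to fibrillin microfibrils and, unlike LTBP1, is not known to hold latent TGF-beta, had 159.7, 147 and 153 CPM in LmnB1_6, 26.5, 27.5 and 25.8 in LmnB1_16, 23.5, 20.5 and 21.1 in mCherry_4 and 39.2, 34.1 and 34.0 in mCherry_3. Both were highest in LmnB1_6 without overlap, but next came mCherry_4 for TGFBI and mCherry_3 for LTBP2. In LmnB1_6 against the mCherry clones TGFBI was 4.23-fold higher (log2 fold change 2.08, SE 0.05, edgeR adjusted p = 6.52e-15) and LTBP2 5.50-fold higher (log2 fold change 2.46, SE 0.06, edgeR adjusted p = 4.90e-15).

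LTBP1 (ENSG00000049323.16, chr2:32946972-33399509, plus strand), which covalently holds latent TGF-beta in the matrix, had 106, 94.3 and 100.4 CPM in LmnB1_6, 117, 121 and 115 in LmnB1_16, 96.3, 89.0 and 96.4 in mCherry_4 and 33.4, 29.5 and 30.5 in mCherry_3. The clone apart was mCherry_3, below all other libraries, while LmnB1_16 was the highest clone and LmnB1_6 overlapped mCherry_4. LTBP1 was higher than in the mean of the mCherry clones in LmnB1_6 (log2 fold change 0.89, SE 0.05, edgeR adjusted p = 7.51e-10) and in LmnB1_16 (2.17-fold, SE 0.05 on the log2 scale, edgeR adjusted p = 2.54e-10). Between the control clones, LTBP1 in mCherry_4 exceeded that in mCherry_3 by 3.01-fold (log2 fold change 1.59, SE 0.07, edgeR adjusted p = 8.69e-11).

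LmnB1_16, the other lamin B1 clone, differed from the mCherry clones in fewer members. There 3 of 10 members were called higher and 1 lower, where 17.2% of tested genes were called higher and 16.5% lower. LTBP1 rose, and PMEPA1 was called at a log2 fold change of 0.49 (SE 0.09, edgeR adjusted p = 6.16e-04), although against mCherry_4 alone it was at -0.18 (edgeR adjusted p = 0.308). SKIL was called at 0.29 (SE 0.09, edgeR adjusted p = 0.0231), and without LmnB1_16 replicate 2 it was at 0.12 (edgeR adjusted p = 0.236). TGFBI fell by 0.29 on the log2 scale (SE 0.05, edgeR adjusted p = 4.26e-04) against the mean of clones that themselves differed. ID2, LTBP2, SMAD6 and SMAD7 were at log2 fold changes of -0.04, -0.07, -0.11 and 0.05 in LmnB1_16 and were not called.

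The difference between the lamin B1 clones was tested directly. In LmnB1_6 against LmnB1_16, 6 of 10 members were called higher (PMEPA1, ID2, LTBP2, TGFBI, SMAD6 and SMAD7) and 1 lower, where 16.6% of tested genes were called higher and 17.8% lower. LTBP2 was 5.76-fold, TGFBI 5.18-fold, SMAD6 2.69-fold and SMAD7 1.63-fold higher in LmnB1_6, with edgeR adjusted p from 3.55e-14 (TGFBI) to 0.00117 (SMAD7). LTBP1 was lower, by 0.23 on the log2 scale (SE 0.06, edgeR adjusted p = 0.00786), and this call was lost without LmnB1_6 replicate 2 (log2 fold change -0.19, edgeR adjusted p = 0.0530). The 2 contrasts with the mCherry clones share those libraries.

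The control clones also differed from each other. In mCherry_4 against mCherry_3, 5 of 10 members were called higher and 1 lower, where 19.9% of tested genes were called higher and 17.4% lower. Besides LTBP1, these were PMEPA1 (2.53-fold higher, log2 fold change 1.34, SE 0.11), TGFBI (1.71-fold), SMAD6 (1.48-fold) and SKIL (1.36-fold), and LTBP2 was 1.65-fold lower (log2 fold change -0.72, SE 0.07, edgeR adjusted p = 1.40e-06). ID1, ID2, ID3 and SMAD7 were not called between the mCherry clones by edgeR.

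**Figure D2:**
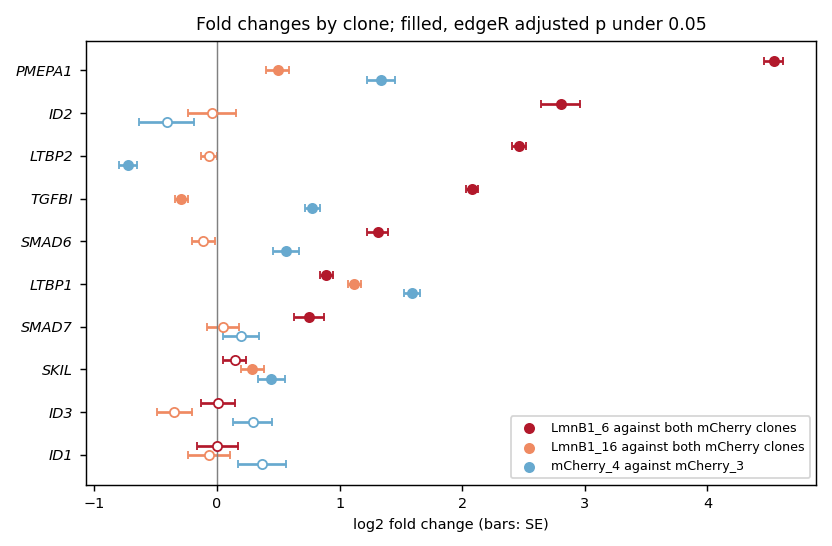
Log2 fold change (horizontal axis) of each member in LmnB1_6 against both mCherry clones, in LmnB1_16 against both mCherry clones and in mCherry_4 against mCherry_3, drawn from top to bottom within each gene; bars are SE and filled points have an edgeR adjusted p under 0.05. PMEPA1 reaches 4.54 in LmnB1_6 and 0.49 in LmnB1_16, and LTBP1 is at 1.59 between the mCherry clones.

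The construct comparison asks which members differ between the 6 LmnB1 and the 6 mCherry libraries. It called 3 of 10 higher and 0 lower, where edgeR called 8.58% of tested genes higher and 9.25% lower. PMEPA1 averaged 141 ± 137 CPM in LmnB1 libraries and 12.7 ± 6.34 in mCherry libraries (SD, n = 6), with a log2 fold change of 3.48 (SE 0.83, edgeR adjusted p = 0.0166). ID2 averaged 8.38 ± 6.97 CPM in LmnB1 libraries and 2.12 ± 0.476 in mCherry libraries (SD, n = 6), with a log2 fold change of 1.98 (SE 0.57, edgeR adjusted p = 0.0337). LTBP2 averaged 89.8 ± 69.4 CPM in LmnB1 libraries and 28.7 ± 8.02 in mCherry libraries (SD, n = 6), with a log2 fold change of 1.64 (SE 0.51, edgeR adjusted p = 0.0426). For no member did the 6 LmnB1 libraries lie wholly above or below the 6 mCherry libraries, an arrangement found for 3.80% (above) and 4.85% (below) of tested genes.

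The calls depended on which clones were in the fit. Without LmnB1_6, 0 members were called by edgeR, and the log2 fold change of LmnB1 against mCherry was 0.35 for PMEPA1, -0.04 for ID2 and -0.11 for LTBP2 (edgeR adjusted p = 0.564, 0.940 and 0.771). Without LmnB1_16, 6 were called, SMAD6, SMAD7 and TGFBI joining them. Without mCherry_4, PMEPA1, LTBP1 and SKIL were called, and without mCherry_3 none was. The share of tested genes that edgeR called in either direction moved as well, to 8.38% without LmnB1_6, 31.7% without LmnB1_16, 32.5% without mCherry_4 and 4.32% without mCherry_3. PMEPA1 kept its call in all 12 fits that left out 1 library, ID2 lost it in 8 and LTBP2 in 9 of the 12. ID2 kept it without any 1 LmnB1_16 library and without mCherry_4 replicate 2, and LTBP2 without any 1 LmnB1_16 library. Where the call was lost, the edgeR adjusted p was 0.0557 to 0.0757 for ID2 and 0.0670 to 0.0942 for LTBP2. The other members were not called in this comparison: TGFBI at a log2 fold change of 1.28 (edgeR adjusted p = 0.0809), LTBP1 at 0.80 (0.0926), SMAD6 at 0.74 (0.112), SMAD7 at 0.44 (0.107), SKIL at 0.20 (0.271), ID1 at -0.05 (0.875) and ID3 at -0.17 (0.468).

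**Figure D3:**
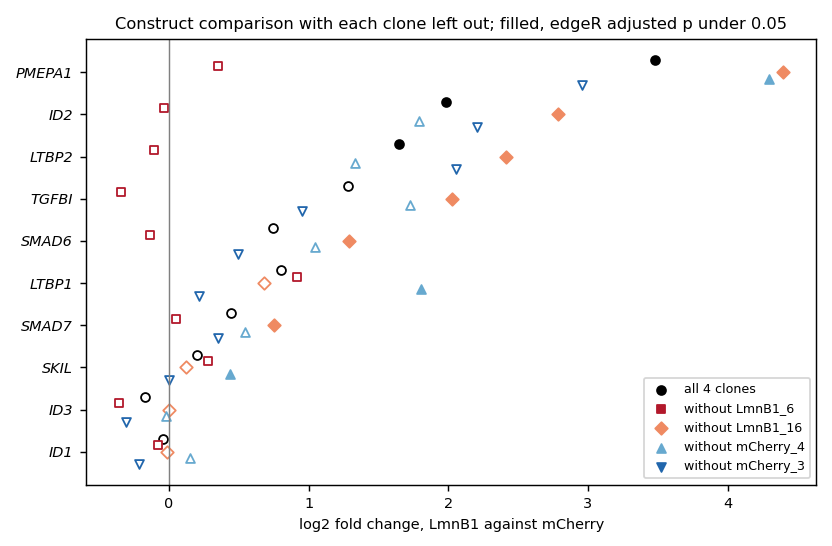
Log2 fold change of LmnB1 against mCherry (horizontal axis) for each member with all 4 clones and with each clone left out in turn; filled symbols have an edgeR adjusted p under 0.05. Without LmnB1_6 the value of PMEPA1 is 0.35, against 3.48 with all clones, and no symbol of that setting is filled.

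Per length, the members spanned a wide range. TGFBI was the most abundant, at 483 TPM over the 12 libraries, followed by ID3 (239 TPM), ID1 (175), PMEPA1 (39.8), LTBP1 (26.4), SMAD7 (25.5), SKIL (25.1), SMAD6 (12.4), LTBP2 (11.6) and ID2 (8.47). The ranges over the 12 libraries of every pair of neighbours in this order overlapped. Within each of the 12 libraries, however, ID3 stood above ID1 and ID1 above PMEPA1. The other pairs of neighbours changed order between libraries. The means pool clones that differ. In mCherry_3 ID3 (241 TPM) stood above TGFBI (226 TPM), and PMEPA1 owes its place to LmnB1_6. In LmnB1_6 the TPM of PMEPA1 was 131 ± 6.99, against 10.7 ± 1.05 in LmnB1_16, 11.6 ± 1.20 in mCherry_4 and 5.82 ± 1.13 in mCherry_3 (SD, n = 3). The deposited effective length of PMEPA1, which depends on which transcripts the reads were assigned to, was 2856 ± 39.96 bases in LmnB1_6, 2228 ± 238 in LmnB1_16, 2214 ± 176 in mCherry_4 and 1946 ± 251 in mCherry_3. PMEPA1 has 4 annotated RefSeq starts, and the window printed above is one of them. The windows of the other 3 starts held CAGAC 1, 2 and 1 times and no GGCGCC, so the motifs given for PMEPA1 depend on the start used. SMAD7 and LTBP1 also have more than 1 start. At the other starts CAGAC or its reverse complement was held 1 and 0 times for SMAD7 and 1 and 1 times for LTBP1. The motif tally over all members used 1 start per gene and depends on that choice too. The antisense genes NKILA and ID2-AS1 overlap PMEPA1 and ID2 and held counts equal to 2.00% and 5.55% of theirs over all libraries. No source used here gives the strand setting of the counting, and reads of these pairs cannot be told apart.

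The genes whose CPM followed PMEPA1 most closely over the 12 libraries, among 12783 protein-coding genes compared, were AK5, TUBA1A, STX2, WNT5A and TENM3. Their Pearson correlations with PMEPA1 ran from 0.992 to 0.996 and describe mainly that LmnB1_6 stands apart from the other clones, since the 3 libraries of a clone share their source. WNT5A, a secreted Wnt ligand gene, was at 375 CPM in LmnB1_6, 47.8 in LmnB1_16, 49.3 in mCherry_4 and 30.03 in mCherry_3. AK5, an adenylate kinase gene, was at 79.0, 9.33, 11.6 and 5.77 CPM in LmnB1_6, LmnB1_16, mCherry_4 and mCherry_3.

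Of 10 BMP ligand genes listed, 5 were tested. Against the mean of the mCherry clones, 5 of 5 were called higher in LmnB1_6, where 24.4% of tested genes were, and 3 of 5 in LmnB1_16, where 17.2% were, with 0 lower in either. In LmnB1_6, 4 of 5 were called higher against each mCherry clone taken alone and 3 of 5 against LmnB1_16. BMP8B, chosen after its values were seen, was at 0.898 CPM in LmnB1_6, 0.880 in LmnB1_16, 0.0442 in mCherry_4 and 1.30 in mCherry_3. BMP2 was at 90.5 ± 1.44 CPM in LmnB1_6, 2.60 ± 0.794 in LmnB1_16, 4.31 ± 0.466 in mCherry_4 and 1.98 ± 0.231 in mCherry_3 (SD, n = 3). BMP4 was at 143 ± 8.74 CPM in LmnB1_6, 32.4 ± 4.07 in LmnB1_16, 11.6 ± 0.829 in mCherry_4 and 11.6 ± 2.34 in mCherry_3. In LmnB1_6 against LmnB1_16 the log2 fold change was 5.09 for BMP2 and 2.14 for BMP4 (edgeR adjusted p = 4.57e-14 and 1.99e-10), and in LmnB1_16 against the mCherry clones it was -0.14 for BMP2 and 1.49 for BMP4 (edgeR adjusted p = 0.548 and 1.99e-08). In the construct comparison BMP4 had a log2 fold change of 2.92 (SE 0.45, edgeR adjusted p = 0.00208) and was called without each clone in turn. The value of BMP2, 3.90 (edgeR adjusted p = 0.0210), was -0.26 without LmnB1_6. GDF6, a BMP-family ligand gene, was at 54.5, 24.2, 17.9 and 7.52 CPM in LmnB1_6, LmnB1_16, mCherry_4 and mCherry_3.

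For the further lists, the shares of tested genes called against the mCherry clones were 24.4% higher and 24.6% lower in LmnB1_6, and 17.2% higher and 16.5% lower in LmnB1_16. Of 5 tested TGF-beta and activin ligand genes, 3 were called higher and 2 lower in LmnB1_6, and 3 and 2 in LmnB1_16, but not the same genes. In LmnB1_16, 1 was called higher and 2 lower against mCherry_4 alone, and 2 and 1 against mCherry_3 alone. INHBA, chosen after its values were seen, was at 165 to 182 CPM in LmnB1_6. That lay between mCherry_4 (208 to 229) and mCherry_3 (81.1 to 84.8). TGFB1, the most studied isoform, was at 132 CPM in LmnB1_6, 212 in LmnB1_16, 185 in mCherry_4 and 173 in mCherry_3, and its log2 fold change against the mCherry clones was -0.44 in LmnB1_6 and 0.24 in LmnB1_16 (edgeR adjusted p = 7.24e-06 and 0.00270). TGFB2, chosen after its values were seen, ran the other way, at 283, 110.2, 185 and 135 CPM in LmnB1_6, LmnB1_16, mCherry_4 and mCherry_3. TGFB3 was at 6.13 CPM in LmnB1_6, 2.92 in LmnB1_16, 1.66 in mCherry_4 and 2.27 in mCherry_3.

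The receptor genes were called no more often than tested genes at large in LmnB1_6. Of 13, 2 were called higher and 3 lower there against the mCherry clones, where 24.4% of tested genes were called higher and 24.6% lower, and 1 and 5 in LmnB1_16, where 17.2% and 16.5% were. TGFBR2, the ligand-binding TGF-beta receptor, was at 138 CPM in LmnB1_6, 171 in LmnB1_16, 151 in mCherry_4 and 163 in mCherry_3. ENG, which encodes the co-receptor endoglin, was at 3.93, 1.18, 10.8 and 4.62 CPM in LmnB1_6, LmnB1_16, mCherry_4 and mCherry_3. Of 13 SMADs and SMAD regulators other than the members, 8 were called higher and 1 lower in LmnB1_6, and 2 and 1 in LmnB1_16. SMAD1, which carries the BMP signal, was at 27.8 ± 3.01 CPM in LmnB1_6, 16.7 ± 0.489 in LmnB1_16, 15.004 ± 0.0819 in mCherry_4 and 13.1 ± 1.25 in mCherry_3. SMAD3, which carries the TGF-beta signal, was at 319, 391, 332 and 291 CPM in LmnB1_6, LmnB1_16, mCherry_4 and mCherry_3.

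Outside the cell, 9 genes of the latent complex and its activation were tested. Against the mCherry clones, 5 were called higher and 4 lower in LmnB1_6, and 5 and 0 in LmnB1_16. ITGB8, whose integrin releases active TGF-beta from its latent complex, was at 72.9 ± 8.55 CPM in LmnB1_6, 26.02 ± 6.38 in LmnB1_16, 9.75 ± 1.34 in mCherry_4 and 7.80 ± 1.46 in mCherry_3. It was called in the construct comparison (log2 fold change 2.50, SE 0.34, edgeR adjusted p = 8.53e-04) and without each clone in turn. Of 9 tested antagonist genes, 3 were called higher and 5 lower in LmnB1_6 against the mCherry clones, and 1 and 5 in LmnB1_16. GREM1, which encodes the BMP antagonist gremlin, was at 152, 312, 381 and 379 CPM in LmnB1_6, LmnB1_16, mCherry_4 and mCherry_3. BMPER, a secreted BMP-binding protein gene near the detection limit, was at 0.256, 0.273, 1.57 and 1.76 CPM in LmnB1_6, LmnB1_16, mCherry_4 and mCherry_3. BAMBI, THBS1 and FST were chosen after their values were seen. BAMBI, a pseudoreceptor gene, was at 38.8 CPM in LmnB1_6, 13.1 in LmnB1_16, 13.1 in mCherry_4 and 16.3 in mCherry_3, while THBS1, whose product activates latent TGF-beta, was at 270.2, 1898, 1361 and 689 CPM and FST, which encodes the activin antagonist follistatin, at 3.99, 59.3, 48.3 and 13.5 CPM in the same order of clones.

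Of 17 other well-known TGF-beta targets tested, 6 were called higher and 7 lower in LmnB1_6 against the mCherry clones, where 24.4% of tested genes were called higher and 24.6% lower. In LmnB1_16, 5 were called higher and 6 lower, where 17.2% and 16.5% of tested genes were. CCN2 (connective tissue growth factor), chosen after its values were seen, was at 452, 628, 758 and 762 CPM in LmnB1_6, LmnB1_16, mCherry_4 and mCherry_3. CCN2 was thus lowest in the clone in which PMEPA1 and TGFBI were highest. COL1A1, the type I collagen chain gene, was at 186 ± 34.2 CPM in LmnB1_6, 20.5 ± 2.40 in LmnB1_16, 17.5 ± 3.15 in mCherry_4 and 15.1 ± 0.880 in mCherry_3. SNAI2, which encodes the repressor Slug, was at 40.3 CPM in LmnB1_6, 2.58 in LmnB1_16, 2.87 in mCherry_4 and 1.27 in mCherry_3. TSC22D1, a TGF-beta-induced leucine zipper gene, was at 222, 127, 92.7 and 85.8 CPM in LmnB1_6, LmnB1_16, mCherry_4 and mCherry_3. The E proteins that ID proteins bind were also read: 2 of 3, TCF3 and TCF4, were called higher in each lamin B1 clone, TCF3 at 191, 135, 116 and 81.2 CPM in LmnB1_6, LmnB1_16, mCherry_4 and mCherry_3. The other BMP targets had 3 tested genes, of which 1 was called higher and 1 lower in LmnB1_6 and 0 in LmnB1_16.

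In the construct comparison of these lists, edgeR called 4 of 5 BMP ligands, 1 of 5 TGF-beta and activin ligands, 1 of 13 SMADs and regulators, 1 of 9 latent complex genes, 4 of 17 other TGF-beta targets and 2 of 3 E proteins higher, with 3 of the 17 other targets lower. Of the receptors 1 was called higher and 3 lower, and of the antagonists 1 higher and 3 lower. Of all tested genes, edgeR called 8.58% higher and 9.25% lower in this comparison. The 1 of 13 SMADs and regulators and the 1 of 9 latent complex genes are near the share called higher. Of the 25 genes called there and recomputed without clones, the members included, 3 were called without each of the 4 clones in turn, BMP4, ITGB8 and BMPER. With clone as a random effect BMP4 and ITGB8 kept their calls (limma adjusted p = 0.0462 and 0.0451) and BMPER lost it (limma adjusted p = 0.177). TSC22D1, TCF3 and GDF6, each lost without at least 1 clone, also kept theirs in that fit (limma adjusted p = 0.0316, 0.0433 and 0.0451). TWSG1, which encodes a secreted BMP-binding protein, fell by 0.30 on the log2 scale (SE 0.06, edgeR adjusted p = 0.00812), and TCF4 rose by 0.41 (SE 0.09, edgeR adjusted p = 0.00950). Among receptor genes ACVR2B was at 0.56 (edgeR adjusted p = 0.0274), ENG at -1.59 (0.0275), ACVRL1 at -2.26 (0.0407) and BMPR1B at -0.74 (0.0450), each lost without at least 1 clone. BMP6 was called at 0.88 (edgeR adjusted p = 0.0432) and was lost in 9 of the 12 fits without 1 library.

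**Figure D4:**
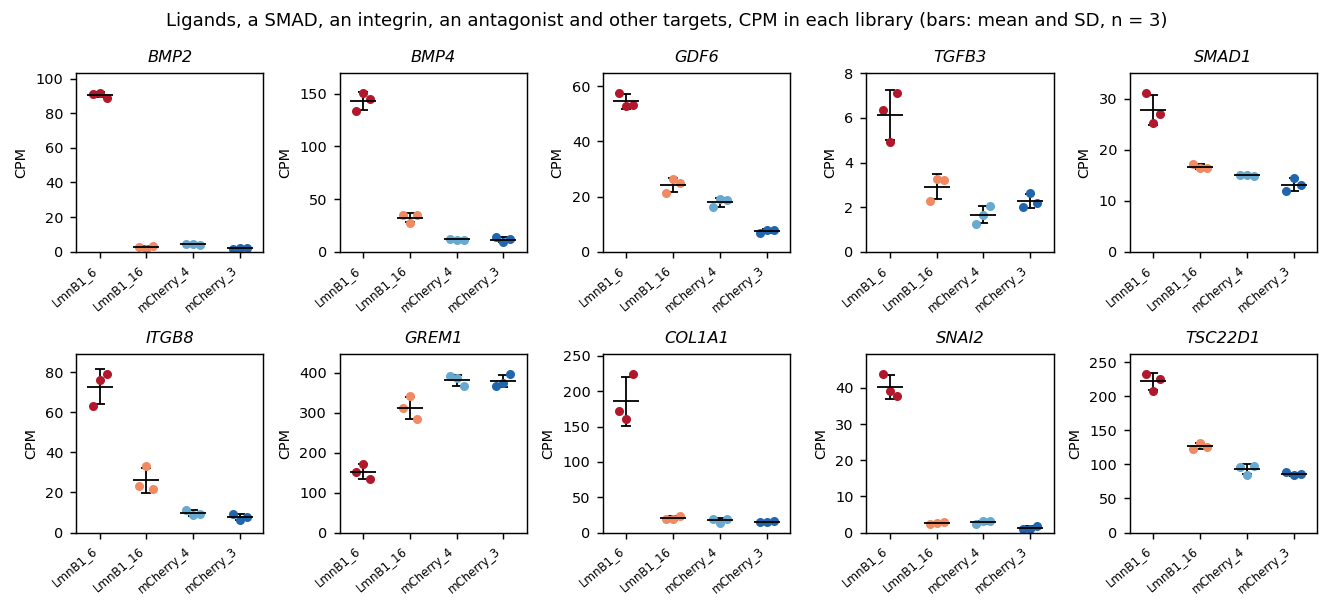
CPM of 10 other pathway genes in each library (vertical axes, linear, each starting at 0), with LmnB1_6, LmnB1_16, mCherry_4 and mCherry_3 from left to right; points are libraries, bars the mean and SD of 3. BMP2, COL1A1 and SNAI2 stand high in LmnB1_6 alone, BMP4, GDF6, ITGB8 and TSC22D1 are highest in LmnB1_6 and next in LmnB1_16, and GREM1 is lowest in LmnB1_6.

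Marker lists of cell identity were read beside the members. Summed over 10 pigment epithelium markers, the level was 11.9 to 12.3 CPM in LmnB1_6, 56.8 to 60.8 in LmnB1_16, 69.8 to 80.9 in mCherry_4 and 89.4 to 100.1 in mCherry_3, with 5 of 10 genes averaging at least 1 CPM. Outside LmnB1_6 this sum is mostly MITF and OTX2. Of 7 tested pigment epithelium markers, 4 were called lower in LmnB1_6 against the mCherry clones (MITF, OTX2, LRAT and RDH5) and 1 higher, SERPINF1, which encodes a factor secreted by pigment epithelium and was at 1.37 to 1.51 CPM in LmnB1_6 and at most 0.752 in any other library. The 4 epithelial markers summed to 588 to 635 CPM in LmnB1_6, 787 to 829 in LmnB1_16, 849 to 926 in mCherry_4 and 1154 to 1289 in mCherry_3, and both that were tested, KRT8 and KRT18, were called lower in LmnB1_6.

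The 6 fibroblast and myofibroblast markers summed to 174 to 189.96 CPM in LmnB1_6, 314 to 356 in LmnB1_16, 320.3 to 343 in mCherry_4 and 343 to 368 in mCherry_3. This sum is mostly THY1, at 114 to 124 CPM in LmnB1_6 and 254 to 297 in the other clones, and it does not describe the whole list. Of 5 tested, THY1 and DCN were called lower in LmnB1_6 against the mCherry clones and 0 higher. PDGFRB was at 45.01 to 46.2 CPM in LmnB1_6, 45.5 to 47.98 in LmnB1_16, 37.4 to 48.4 in mCherry_4 and 38.1 to 43.8 in mCherry_3, and ACTA2, the smooth muscle actin gene, at 11.9 to 19.97, 7.23 to 8.95, 18.1 to 23.8 and 14.4 to 29.3 CPM in the same order of clones. The part of these markers in the members' results was not tested. The 4 leukocyte markers summed to 43.03 to 46.2 CPM in LmnB1_6 and to 66.5 to 88.6 CPM in the other clones, nearly all of it CD68, and the 4 endothelial markers to at most 16.5 CPM in any library. PTPRC, CD14, PECAM1, VWF and CDH5, which define leukocytes or endothelium, did not pass the filter on low counts. The 3 muscle markers summed to 25.98 to 35.1 CPM in LmnB1_6, 81.4 to 94.98 in LmnB1_16, 55.9 to 56.5 in mCherry_4 and 127 to 153 in mCherry_3.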

How the data were processed

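Per the file headers, the authors deposited for each library a gene-level quantification with estimated counts, TPM, gene length and effective length. STAR, Salmon and DESeq2, without versions, and GRCh38 (hg38) are named in the submitters' processing notes, while no source used here gives the annotation release or strand setting. The deposited estimated counts carry no normalization, and 31.3% to 32.6% of detected genes per library had one that was not whole, so they were rounded. The deposited TPM, which Salmon-type files scale by effective length, served for levels between genes and as an alternative on the log2(TPM + 1) scale. Of 60708 identifiers, 60696 had a symbol, and 58440 matched GENCODE 29, which gave positions.

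Genes kept by filterByExpr (minimum count 10, minimum total 15, grouped by clone; 15388) were scaled with TMM (0.948 to 1.06) and tested with edgeR 4.0.16 (glmQLFit, glmQLFTest) in R 4.3.3, Benjamini-Hochberg adjustment over all 15388 genes and a threshold of 0.05. The construct fit set 6 libraries against 6 (biological coefficient of variation 0.262), and another fit had the 4 clones as groups (0.0842) and gave the contrasts between clones. The SE was obtained by dividing a log2 fold change by the root of its F statistic, and a 95% interval is 1.96 SE either side. No pair of libraries of a clone agreed within sampling noise (chi-square per degree of freedom at least 3.85, highest 17.7 with LmnB1_16 replicate 2). The fits were tested on simulated counts. Alternatives were RLE size factors, no filter, a replicate block, each library or clone left out, DESeq2 1.42.0, limma 3.58.1 on log2(TPM + 1), limma with clone as a random effect (consensus correlation 0.618) and counts summed per clone.

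The members and the pathway lists were chosen with earlier results of these data known. Named pathway genes are, for each list, those called in the construct comparison (at most the 4 with the smallest adjusted p), plus the most abundant ligand, receptor and SMAD. A few others are described as picked once their values were known, and a few that the rule takes are not given here. The genes most like PMEPA1 are those with the highest Pearson correlation of log2 CPM. Promoter windows are from RefSeq (GRCh38.p14), which had an entry for all 10 members.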

Additional observations from a re-analysis of the deposited data

Results flagged for a closer look

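For 7 of the 10 members the effect of an LmnB1 clone against the mCherry clones differed between LmnB1_6 and LmnB1_16, tested as the contrast of the clones in edgeR. In that contrast 16.6% of tested genes were called higher and 17.8% lower. The log2 difference was 4.046 for PMEPA1, 2.844 for ID2, 2.525 for LTBP2, 2.374 for TGFBI, 1.425 for SMAD6 and 0.7017 for SMAD7, all higher in LmnB1_6, and -0.2307 for LTBP1, lower in LmnB1_6. The mCherry libraries enter both effects, and each clone is a single line, so clone and construct response cannot be told apart.

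SMAD7 in mCherry_3 replicate 1 stood apart from the other mCherry libraries at 28.3047 CPM, its gap to the next library being larger, relative to the range of the 6, than Dixon's 95% critical value allows. Of the 20 groups examined in this way, chance gives about 1 in 20.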

How the results depend on the processing

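In LmnB1_6 against the mCherry clones 7 members were called whichever single library was left out. The count was 3 to 5 in LmnB1_16 against the mCherry clones, 6 to 8 in LmnB1_6 against LmnB1_16, and 6 to 7 in mCherry_4 against mCherry_3. The construct count, 3, was 1 to 5 without single libraries. With the share of all tested genes called in brackets (17.8% in the fit as reported), it was 1 with the replicate block (10.7%) and with limma on log2(TPM + 1) (11.4%), 5 with DESeq2 (24.3%), 0 without LmnB1_6 (8.38%), 6 without LmnB1_16 (31.7%), 0 without mCherry_3 (4.32%), and 0 with clone as a random effect (1.06%) and with counts summed per clone. With summed counts 0 of all genes were called at an adjusted p under 0.05 (smallest edgeR adjusted p = 0.261) and 642 had an unadjusted p under 0.05. Over 910 recomputed member values, 846 kept their call status, 40 lost a call, 22 gained one and 2 reversed. A reversal here is a change of sign with a call in either fit. The 2 were ID2 (-0.0378) and LTBP2 (-0.11) without LmnB1_6. Sign changes without a call count among the 846. In the construct comparison without LmnB1_6 these include SMAD6 (0.74 to -0.14) and TGFBI (1.28 to -0.34). Among pathway genes BMP2 (-0.26) and TGFB1 (0.24) reversed in the construct comparison without LmnB1_6, and THBS1 (-1.92) and FST (-2.95) without LmnB1_16. The causes of these shifts were not tested. The low-count filter, size factors and tool did not change a called member's direction. Over all clones the replicate numbers did not pair the samples: 5 of 18 same-number pairs had deviations correlated above 0.1 (median 0.0614). The replicate 3 libraries of LmnB1_6, LmnB1_16 and mCherry_4 did deviate together (0.182, 0.207 and 0.253). With the block ID3 was called in LmnB1_16 against the mCherry clones (log2 fold change -0.38, edgeR adjusted p = 0.0160) and in LmnB1_6 against LmnB1_16 (0.37, edgeR adjusted p = 0.0347). The 2 clones per construct limit every construct value.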
